A study of Mus musculus with 5 samples.

Results

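The interleukin-1 (IL-1) family ligands and receptors described here were 10 genes: the ligands Il1a, Il1b, Il18, Il33 and Il1f9, the antagonist Il1rn, the decoy receptor Il1r2, and the receptor chains Il1r1, Il1rap and Il18r1. They were chosen by gene symbol. All 10 were found among the 32285 features of the T cell libraries and among the 54987 features of the whole-tumor libraries. Droplet single-cell RNA sequencing (scRNA-Seq) counted RNA in tumors of BALB/c mice, 12 weeks old per the labels, that carried 4T1 cells (a mammary cancer line of the mouse) in a mammary fat pad. Treated mice received doxorubicin (DOX) intravenously at 5 mg/kg, given 3 times with 3 days between doses, and control mice received saline. DOX sensitive tumors were those whose growth DOX inhibited and DOX resistant tumors were those whose growth it left unaffected. There were 5 libraries: T cells of sensitive tumors, T cells of resistant tumors, and whole tumor labelled control, sensitive or resistant.

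Each group was 1 library, so no difference between groups has a replicate check, no p-value is given, and every interval covers counting error only. Each T cell library pooled 3 tumors, and all tumors grew from the same cell line, 4T1-Thy1.1. T cells were enriched by magnetic depletion of other cells, so the neutrophils, macrophages, fibroblasts and cancer cells in those libraries are cells that the depletion left behind. The whole-tumor library titled resistant was resistant in its sensitivity field but was described as a sensitive tumor in its source field. The control library's source field also named a sensitive tumor. Whole-tumor libraries are therefore called by their titles, and no level in a T cell library was set against a level in a whole-tumor library.

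IL-1 family cytokines are alarm signals of barrier and myeloid cells. IL-1 alpha (Il1a) and IL-1 beta (Il1b) bind the receptor Il1r1, which then recruits the shared chain Il1rap and signals through Myd88 and NF-kB, while the antagonist Il1rn occupies Il1r1 without signalling and the decoy Il1r2 binds ligand but lacks the signalling domain. IL-18 binds Il18r1, IL-33 binds the receptor Il1rl1 (ST2) and IL-36 gamma (Il1f9) binds Il1rl2, and the receptors for IL-33 and IL-36 gamma also use Il1rap. In tumors, IL-1 from myeloid cells is known to act on fibroblasts, endothelium and IL-17-producing T cells.

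Most members sit in clusters in the mouse genome (GRCm38). On chromosome 1, plus strand, Il1r2 (chr1:40074079-40125231) was followed after 99.8 kb by Il1r1 (chr1:40225080-40317257) and after a further 148.3 kb by Il18r1 (chr1:40465552-40500854). On chromosome 2, Il1f9 (chr2:24186476-24193568, plus) and Il1rn (chr2:24336853-24351494, plus) were 143.3 kb apart. Il1a (chr2:129299610-129309972, minus) and Il1b (chr2:129364570-129371139, minus) were 54.6 kb apart on the same chromosome, far from the first pair. Il1rap (chr16:26581704-26730117, plus), Il18 (chr9:50554827-50581840, plus) and Il33 (chr19:29925114-29960718, plus) stood alone. Il1b was overlapped on the other strand by Il1bos, Il1a by Gm14023, Il18 by Bco2 and Tex12, and Il1rap by Gm20319. Il1r1 and Il1r2 were each overlapped on the same strand by another annotated gene (Gm38070 and Gm16894), so reads in the overlap are uncertain.

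The 250 bases before the start of Il1a, Il1b and Il1f9, the ligands with most RNA in neutrophils, are shown because these genes were highest in the same cell type, although Il1f9 lies far from the Il1a and Il1b pair. They are from RefSeq (GRCm38.p6), written 5′ to 3′ on the gene's strand, and capitals mark every match on either strand to NF-kB (GGG, any 5 bases, then CC), AP-1 (TGANTCA), C/EBP (TTGCNNAA), PU.1 (GAGGAA) or the TATA box (TATAAA).
Il1a (chr2:129309973-129310222, minus): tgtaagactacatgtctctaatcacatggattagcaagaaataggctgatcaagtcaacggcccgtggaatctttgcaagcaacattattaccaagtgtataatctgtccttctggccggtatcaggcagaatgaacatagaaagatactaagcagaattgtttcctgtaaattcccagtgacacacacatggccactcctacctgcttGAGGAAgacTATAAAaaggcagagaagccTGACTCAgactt
Il1b (chr2:129371140-129371389, minus): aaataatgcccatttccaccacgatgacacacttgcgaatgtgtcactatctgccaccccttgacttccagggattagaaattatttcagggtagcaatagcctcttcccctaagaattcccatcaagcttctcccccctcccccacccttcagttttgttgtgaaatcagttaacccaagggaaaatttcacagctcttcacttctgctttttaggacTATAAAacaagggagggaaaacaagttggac
Il1f9 (chr2:24186226-24186475, plus): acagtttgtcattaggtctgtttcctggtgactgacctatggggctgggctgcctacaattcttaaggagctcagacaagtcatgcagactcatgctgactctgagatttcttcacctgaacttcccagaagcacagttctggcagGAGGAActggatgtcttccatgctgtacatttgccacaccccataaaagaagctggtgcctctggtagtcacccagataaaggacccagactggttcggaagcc

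Il1a had a TATA box whose first base lay 32 bases before the start, an AP-1 match at 12 bases and a PU.1 match at 41 bases. Il1b had a TATA box at 31 bases and no other match, and Il1f9 had a PU.1 match at 104 bases. Among 32851 windows of the same length in the promoter table, TATAAA was present in 12.4%, AP-1 in 6.75%, PU.1 in 23.3%, C/EBP in 9.56% and NF-kB in 45.8%. A match is a string of letters and not a measured binding site, and the absence of a match concerns this window alone.

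The sensitive T cell library held 3949 barcodes and 31690845 unique molecular identifier (UMI) counts, and the resistant T cell library held 6116 barcodes and 35908799 UMIs. The filters kept 3448 and 3091 cells, and the mitochondrial limit removed 3.34% and 33.2% of the cells that had enough genes. The whole-tumor libraries were smaller, with 275 to 501 barcodes, 263 to 488 kept cells and 537293 to 1731940 UMIs. The T cell libraries shared 31 cell barcodes. Cells were put in gates (a lineage by its marker genes, then T cell classes by a few defining genes), and levels are UMIs of a gene scaled to a gate total of 1000000 UMIs (CPM). A CPM counts captured 3′ ends and is not divided by gene length, so it compares 1 gene between gates and not 1 gene with another. In the T cell libraries, 142 and 169 cells were neutrophils, 205 and 180 macrophages, 812 and 581 fibroblasts, 109 and 139 cancer cells, and 1276 and 1568 CD8 T cells (sensitive and resistant, in this order throughout). Of the 8 markers of its own lineage, each gate of neutrophils, macrophages, fibroblasts and cancer cells had all 8 in at least 10% of its cells.

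The family split by cell type in the same way in both T cell libraries. Il1b, Il1a, Il1f9, Il1rn and Il1r2 were highest in neutrophils, Il33 and Il1r1 in fibroblasts, and Il18r1 in lymphocytes. Il1rap was highest in neutrophils and next in fibroblasts, and Il18 was spread thinly over neutrophils, macrophages, cancer cells and fibroblasts.

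**Figure D1:**
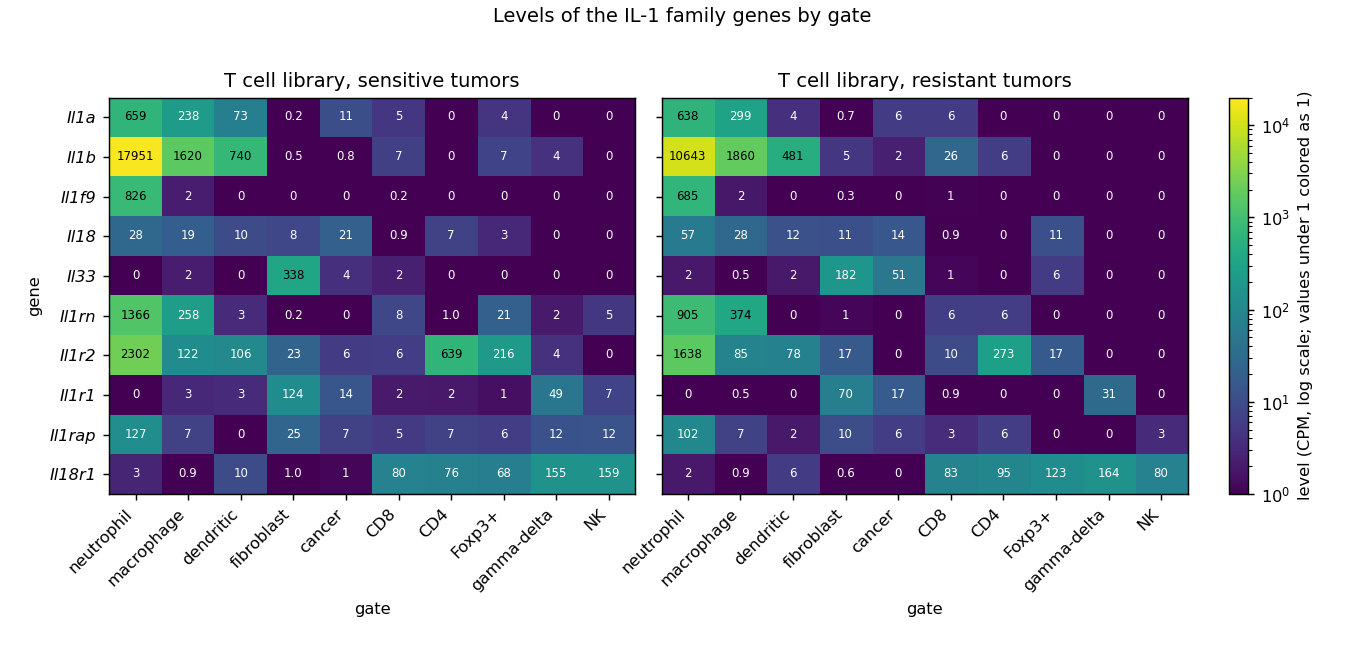
Level of each IL-1 family gene in each gate of the T cell libraries from sensitive (left) and resistant (right) tumors, in CPM on a log color scale, with the value printed in each cell. Il1b reached 17951 CPM in sensitive and 10643 CPM in resistant neutrophils, Il33 was at 338 and 182 CPM in fibroblasts, and Il18r1 was at 80.1 and 83.2 CPM in CD8 T cells.

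Il1b, the main secreted IL-1, was the member with the largest difference in neutrophils that rested on many UMIs. Sensitive neutrophils held 6480 Il1b UMIs (17951 CPM, 95% Poisson interval 17516 to 18393) and resistant neutrophils held 5424 (10643 CPM, 10361 to 10930). The ratio was 1.69, with an exact conditional binomial 95% interval of 1.63 to 1.75. The intervals of both levels were far apart, yet the ratio stayed under the 2-fold limit used here for a call. A call meant a CPM ratio of at least 2 or at most 0.5 with at least 20 UMIs in both libraries together. Among 3295 genes tested in neutrophils, 316 (9.59%) passed that limit.

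Nearly every neutrophil had an Il1b UMI, in 97.9% of sensitive and 92.9% of resistant cells, at median depths of 2204 and 2511 UMIs per cell. With every cell thinned to 500 UMIs, the shares were 88.7% (Clopper-Pearson 95% interval 82.3 to 93.4) and 83.4% (77.0 to 88.7). These intervals overlapped, but with most neutrophils positive the share had little room to differ. In CD8 T cells, which should lack Il1b, the shares were 0.705% and 1.98% at median depths of 4032.5 and 4681.5 UMIs, far below the neutrophil shares.

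Macrophages were the next source of Il1b, and there the direction was the other one. Sensitive macrophages held 3670 UMIs (1620 CPM, 1568 to 1674) and resistant macrophages 3918 (1860 CPM, 1802 to 1919), a ratio of 0.871 (0.833 to 0.911). Of the 8 neutrophil markers, 3 were found in at least 10% of macrophages in each library, with a summed level of 263 and 534 CPM, and 2 and 1 of the markers were at 0. The part of these transcripts in macrophage Il1b was not tested.

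Macrophages differed among themselves. In cells with a C1q UMI (C1qa, C1qb or C1qc, complement genes of resident macrophages; 180 and 146 cells), Il1b was at 1573 and 1570 CPM. In cells with none (25 and 34 cells) it was at 2057 (1872 to 2255) and 3326 CPM (3137 to 3523). The C1q-bearing cells of both libraries were thus level, and the difference lay in the few cells without a C1q UMI. This split was chosen after the values were seen.

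Dendritic cells (23 and 45 cells) came after macrophages, at 740 and 481 CPM, but 127 of 223 and 78 of 246 UMIs came from 1 cell in each library. The Il1b ratio there was 1.54 with all cells, 0.971 without these cells and 0.0919 in a gate that asked for more markers, so no direction held. By share of a library's Il1b UMIs, neutrophils held 59.8% and 51.6% and macrophages 33.9% and 37.3%, though they made up few of the cells. The share depends on how many cells of each type the depletion left.

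**Figure D2:**
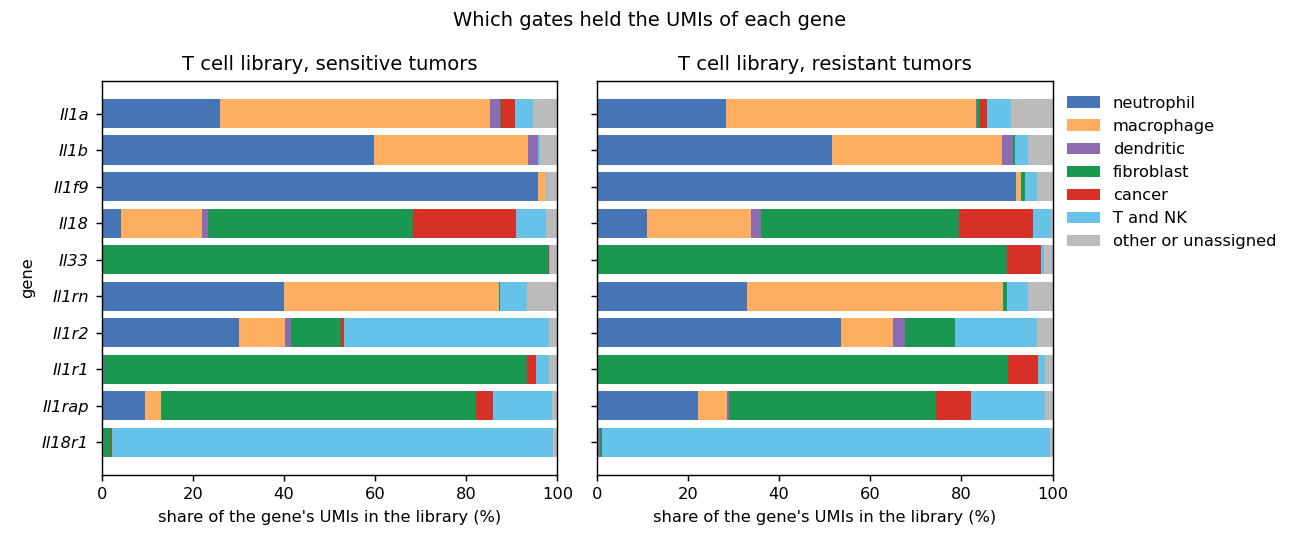
Share of each gene's UMIs that each gate held in the T cell libraries, in percent, with sensitive and resistant tumors side by side. Neutrophils and macrophages held most Il1b UMIs (59.8% and 33.9% in the sensitive library), fibroblasts held 97.8% and 90.0% of Il33 UMIs, and T and NK cells held nearly all Il18r1 UMIs (CD8 T cells alone 53.7% and 78.4%).

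In CD8 T cells Il1b was low and past the limit, with 42 UMIs in 9 cells of the sensitive library and 245 UMIs in 31 cells of the resistant library. The levels were 6.61 and 26.4 CPM and the ratio was 0.250 (0.176 to 0.348). Neutrophil transcripts moved with it: S100a9 had 16 and 804 UMIs and S100a8 had 9 and 302 UMIs in the same cells, and the 8 neutrophil markers summed to 10.1 and 136 CPM, with 3 and 0 of them at 0. In 1 resistant cell there were 92 Il1b UMIs. The ratio was 0.251 in CD8 T cells with no S100a8 or S100a9 UMI, but it was 0.679 when cells scored as doublets were kept and 0.621 when neutrophils were gated without these genes, both short of the limit. The part of neutrophil RNA in this ratio was not tested.

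Fibroblasts and the remaining T/NK cells showed the same sparse pattern of Il1b. Fibroblasts had 6 and 48 UMIs (ratio 0.0966, 0.0338 to 0.226), of which 32 resistant UMIs were in 1 cell, S100a9 had 18 and 69 UMIs there, and the 8 neutrophil markers together were at 79.4 and 32.7 CPM with 3 and 1 of them at 0. Other T/NK cells (308 and 186 cells) had 1 and 48 UMIs, of which 47 were in 1 resistant cell. Without the leading cell of each library the fibroblast ratio was 0.193, still past the limit, and other T/NK cells had 0 and 1 UMIs left. With doublets kept the fibroblast ratio was 0.0247. In a gate that asked for more markers the ratio in other T/NK cells was 0.623, short of the limit.

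Il1a, the other agonist of Il1r1, was level in neutrophils in the main processing. Its 238 and 325 UMIs gave 659 CPM (578 to 749) and 638 CPM (570 to 711), a ratio of 1.03 (0.871 to 1.23), and 68 of the resistant UMIs were in 1 cell. Under the alternatives the ratio ran from 0.879 to 1.33. In macrophages the 540 and 630 UMIs gave 238 CPM (219 to 259) and 299 CPM (276 to 323), a ratio of 0.797 (0.709 to 0.896). As for Il1b, macrophages without a C1q UMI stood highest in the resistant library, at 158 and 494 CPM against 247 and 261 CPM in those with one. Neutrophils were above macrophages in both libraries beyond their intervals.

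Dendritic cells had 22 and 2 Il1a UMIs (73.0 and 3.91 CPM), a ratio of 18.7 (4.59 to 164) that passed the limit. Of the 22 UMIs, 16 were in 1 cell. The ratio was 10.3 without the leading cell of each library and 2.62 on 3 and 2 UMIs in the stricter gate. Cancer cells had 28 and 17 UMIs (11.0 and 5.71 CPM, ratio 1.93, 1.02 to 3.76), just under the limit and past it without the leading cell of each library (2.26) or with no mitochondrial limit (2.10). Among all genes, 9.79% passed in dendritic cells, 4.87% in cancer cells and 5.04% in macrophages.

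Il1f9, which encodes IL-36 gamma, was almost confined to neutrophils, which held 95.8% and 92.1% of its UMIs. It had 298 UMIs (826 CPM, 734 to 925) in sensitive and 349 (685 CPM, 615 to 761) in resistant neutrophils, a ratio of 1.21 (1.03 to 1.41). Detection was alike, in 57.0% and 56.8% of neutrophils, against 0.0784% and 0.255% of CD8 T cells. In fibroblasts Il1f9 had 0 UMIs in the sensitive library, where 3 counts would be 0.229 CPM.

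Il18, which is stored as a precursor and needs caspase-1 to become active, was low in every gate. In neutrophils its 10 and 29 UMIs gave 27.7 CPM (13.3 to 50.9) and 56.9 CPM (38.1 to 81.7). The ratio of 0.487 was just past the limit, but its interval of 0.212 to 1.03 held 1, and it was short of the limit with doublets kept (0.511), with no mitochondrial limit (0.541) and with neutrophils gated without S100a8 and S100a9 (0.517). Macrophages had 43 and 60 UMIs (19.0 and 28.5 CPM, ratio 0.666, 0.440 to 1.00) and fibroblasts 108 and 114 (8.23 and 11.2 CPM, ratio 0.732, 0.558 to 0.961). Cancer cells differed in the other direction, at 54 and 43 UMIs (21.2 and 14.4 CPM), but that ratio of 1.47 had an interval of 0.967 to 2.25. The order of the gates by Il18 was not settled beyond counting error in the sensitive library, where the intervals of neutrophils, macrophages and cancer cells overlapped.

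Il33, a nuclear alarmin of stromal cells, was the fibroblast ligand of the family. Sensitive fibroblasts held 4437 UMIs (338 CPM, 328 to 348) and resistant fibroblasts 1849 (182 CPM, 174 to 191), a ratio of 1.86 (1.76 to 1.96) that stayed under the limit. The share of fibroblasts with a UMI was 71.1% and 71.8%, at median depths of 13273.5 and 14011 UMIs, and 13.3% (11.0 to 15.8) and 9.12% (6.91 to 11.8) after thinning. The unthinned shares were close, and the sensitive library had more Il33 UMIs per fibroblast. The background share in CD8 T cells was 0.313% and 0.255%.

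Some fibroblasts carried far more Il33 than others, up to 339 UMIs in 1 sensitive and 79 in 1 resistant cell. When each cell was given equal weight the ratio was 1.66. Fibroblasts with a UMI of Pi16, a marker of adventitial fibroblasts, were 699 and 552 cells with Il33 at 327 and 179 CPM, a ratio of 1.82. Fibroblasts with both Acta2 and Tagln, contractile genes of myofibroblasts, were 113 and 82 cells with Il33 at 352 (332 to 372) and 125 CPM (113 to 139). Both groups stood higher in the sensitive library. They overlapped: 82 resistant fibroblasts had both contractile genes, while only 29 lacked a Pi16 UMI. The splits were chosen after the values were seen.

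Cancer cells showed the opposite direction for Il33. There were 10 UMIs (3.93 CPM) in the sensitive and 151 UMIs (50.7 CPM) in the resistant library, and the ratio of 0.0775 (0.0364 to 0.147) passed the limit. Of the 151 UMIs, 75 were in 1 cell, and 21 cells had any. Collagen transcripts moved with it, since Col1a1 had 17 and 84 UMIs and Col1a2 had 7 and 61, while the 8 fibroblast markers summed to 45.2 and 131 CPM with none at 0. In cancer cells with no UMI of either collagen the ratio was 0.0701, and it was 0.136 with doublets kept. The part of fibroblast RNA in it was not tested in any other way.

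**Figure D3:**
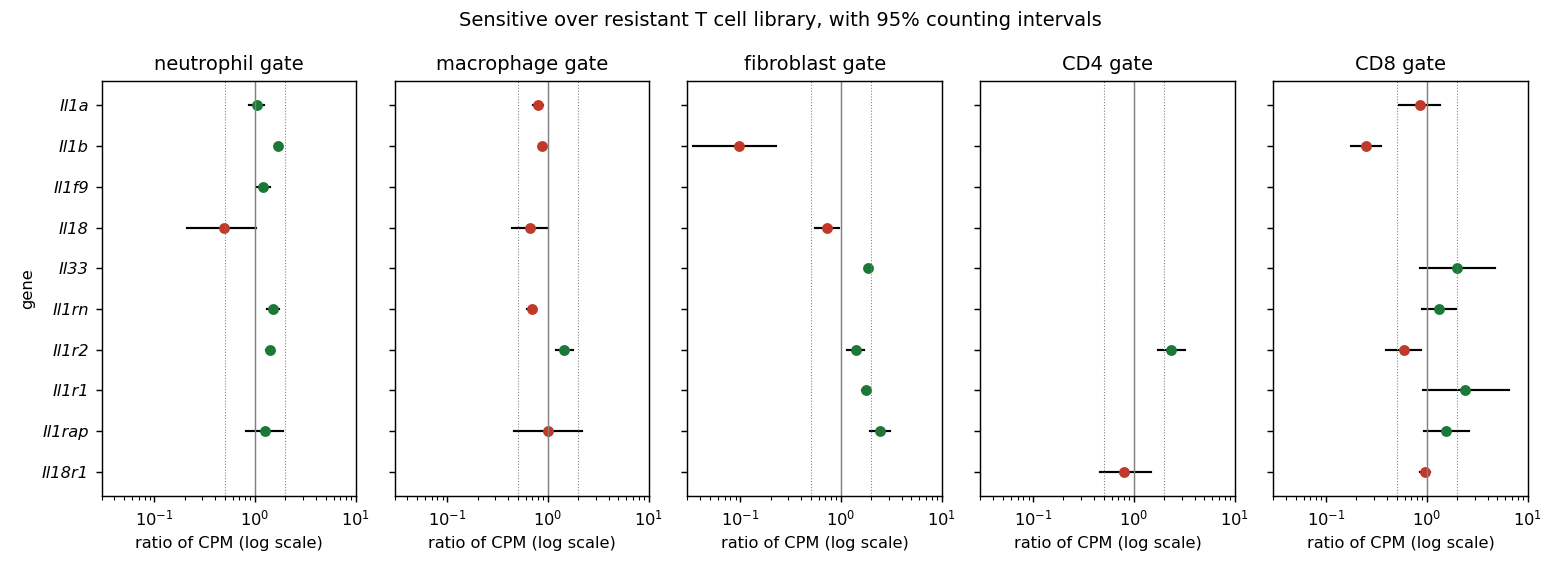
Ratio of each gene's CPM in the sensitive over the resistant T cell library, by gate, on a log axis with 95% counting intervals, where the dotted lines mark ratios of 0.5 and 2. Il1b, Il1rn and Il1r2 lay above 1 in neutrophils (1.69, 1.51 and 1.41) and Il33, Il1r1 and Il1rap lay above 1 in fibroblasts (1.86, 1.76 and 2.41).

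Il1rn, the receptor antagonist, followed Il1b. In neutrophils its 493 and 461 UMIs gave 1366 CPM (1248 to 1492) and 905 CPM (824 to 991), a ratio of 1.51 (1.33 to 1.72). In macrophages its 584 and 788 UMIs gave 258 CPM (237 to 280) and 374 CPM (348 to 401), a ratio of 0.689 (0.618 to 0.768). The antagonist was thus higher in sensitive neutrophils and lower in sensitive macrophages, as the agonist Il1b was, and all 4 ratios were under 2-fold. Outside myeloid cells it was sparse. Of its UMIs in CD8 T cells, 40 of 53 sensitive and 33 of 58 resistant ones were in 1 cell. Foxp3+ T cells had 14 and 0 UMIs, too few for a call.

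Il1r2, the decoy receptor, had several sources. Neutrophils were highest, with 831 UMIs (2302 CPM, 2148 to 2464) in the sensitive and 835 (1638 CPM, 1529 to 1753) in the resistant library. The ratio was 1.41 (1.27 to 1.55). Macrophages had 277 and 178 UMIs (122 and 84.5 CPM, ratio 1.45, 1.19 to 1.76), and fibroblasts had 305 and 169 (23.2 and 16.7 CPM, ratio 1.40, 1.15 to 1.69). In dendritic cells 32 and 40 UMIs gave a ratio of 1.36 (0.825 to 2.22), which turned to 0.635 in the stricter gate. The macrophage ratio was 2.24 with no mitochondrial limit and 1.98 without the cell with most UMIs, since 63 of the 178 resistant UMIs were in 1 cell.

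By level, CD4 T cells came next after neutrophils. In the resistant library they held fewer Il1r2 UMIs than macrophages, fibroblasts or other T/NK cells. The CD4 gate (T cells with a Cd4 UMI and none of Cd8a, Cd8b1, Foxp3 or Trdc) held 178 and 45 cells. Sensitive CD4 T cells held 657 Il1r2 UMIs (639 CPM, 591 to 690) in 56 cells, and resistant CD4 T cells held 46 (273 CPM, 200 to 364) in 5 cells. The ratio was 2.34 (1.74 to 3.23), past the limit, in a gate where 19.3% of 5978 genes passed. After thinning, Il1r2 was found in 12.4% (7.91 to 18.1) and 2.22% (0.0562 to 11.8) of the cells. The unthinned shares in CD8 T cells were 1.72% and 2.81%, against 31.5% and 11.1% in CD4 T cells. The 8 neutrophil markers were near 0 in sensitive CD4 T cells, with 6 of them at 0 and a sum of 2.92 CPM, against 5 at 0 and 178 CPM in resistant ones. Marker lists of other lineages differed in both directions. The 8 B cell markers summed to 1347 and 17.8 CPM with 4 and 7 at 0, the 8 cancer cell markers to 453 and 35.6 CPM with 1 and 4 at 0 (among them Krt18, with 94 and 1 UMIs, 90 of them in 1 cell), and the 8 mast or basophil markers to 170 and 29.6 CPM with 5 and 6 at 0. The 8 macrophage markers were lower in the sensitive cells, at 102 and 166 CPM with 1 and 4 at 0, and were the list of these with a marker in at least 10% of the cells (1 in each library). The part of these lists in the ratio was not tested. Il1r2 in cancer cells themselves was at 5.89 and 0 CPM.

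In sensitive CD4 T cells, 573 of the 657 Il1r2 UMIs lay in cells with a type 2 cytokine UMI, against 19 of 46 in resistant ones. In the sensitive library, 69 CD4 T cells with a UMI of Il13, Il4 or Il5 were at 1078 CPM (992 to 1170) and the 109 others at 169 CPM (135 to 210). The resistant library held 4 such cells, at 669 CPM (403 to 1045) from 19 UMIs, and 41 others at 193 CPM (127 to 280). Among cells without these cytokines the ratio was 0.880, on 84 and 27 UMIs, so the direction turned when they were left out. Il18r1 went the other way in the sensitive library, at 9.41 CPM (3.05 to 22.0) in cells with a type 2 cytokine UMI and 147 CPM (115 to 185) in the others. In the resistant library it was at 106 CPM (21.8 to 309) and 92.7 CPM (49.4 to 159), on 3 and 13 UMIs, which did not differ beyond counting error. CD4 T cells with a UMI of Il1rl1, the IL-33 receptor, were 22 in the sensitive library and carried Il1r2 at 1117 CPM, against 555 CPM in the 156 others. In the resistant library the 4 such cells had 0 Il1r2 UMIs, and the 41 others had all 46 (294 CPM). These splits were chosen after the values were seen.

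**Figure D4:**
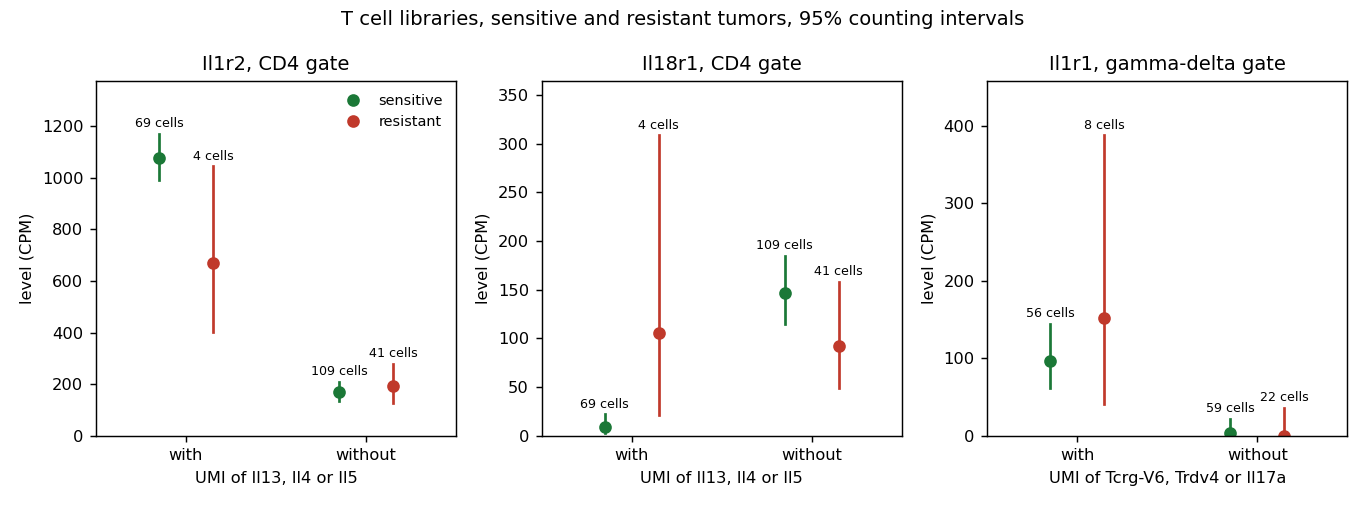
Levels of Il1r2 and Il18r1 in CD4 T cells with and without a UMI of Il13, Il4 or Il5, and of Il1r1 in gamma-delta T cells with and without a UMI of Tcrg-V6, Trdv4 or Il17a, in CPM with 95% counting intervals and the number of cells. Il1r2 was at 1078 CPM in 69 sensitive cells with a type 2 cytokine UMI and 169 CPM in the 109 without, and Il1r1 was at 96.4 and 3.97 CPM in sensitive gamma-delta T cells with and without the other genes.

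Foxp3+ T cells (98 and 31 cells), the regulatory class, had 145 and 3 Il1r2 UMIs (216 and 16.8 CPM). The ratio of 12.9 passed the limit but its interval ran from 4.31 to 63.1, it was 8.33 with no mitochondrial limit, and 15.5% of genes passed in this gate. Il1r2 was found in 32 of the sensitive cells and was higher in those with an Il1rl1 UMI (303 CPM, 244 to 372) than in those without (145 CPM, 109 to 189), while the 3 resistant UMIs were too few to split. Other T/NK cells had 396 and 138 UMIs, a ratio of 1.79 (1.47 to 2.19). Of the 138 resistant UMIs 108 were in 1 cell, and without the leading cell of each library the ratio was 6.81. It was also past the limit with no mitochondrial limit (2.28) and with each cell weighted equally (2.01). CD8 T cells went the other way, with 38 and 94 Il1r2 UMIs (5.98 and 10.1 CPM) and a ratio of 0.589 (0.393 to 0.868), short of the limit. As given with Il1b, the neutrophil markers in these cells summed to 10.1 and 136 CPM, and the ratio was 0.747 in those with no S100a8 or S100a9 UMI. In NK cells no Il1r2 UMI was found in either library, where 3 counts would be 7.46 and 9.63 CPM.

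Il1r1, the signalling receptor for IL-1, was a fibroblast gene here. It had 1624 UMIs (124 CPM, 118 to 130) in sensitive and 712 (70.2 CPM, 65.1 to 75.5) in resistant fibroblasts, a ratio of 1.76 (1.61 to 1.93), or 1.48 with each cell weighted equally. Fibroblasts held 92.8% and 90.1% of its UMIs. Pi16-bearing fibroblasts were at 125 and 73.7 CPM (ratio 1.69) and those with Acta2 and Tagln at 96.3 (86.4 to 107) and 31.5 CPM (25.5 to 38.6). As with Il33, both of these overlapping groups stood higher in the sensitive library, and the ratio was under 2-fold for the gate as a whole.

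In neutrophils no Il1r1 UMI was found among 142 and 169 cells, where 3 counts would be 8.31 and 5.89 CPM. The cells with most Il1b thus had no detectable message for its signalling receptor and the highest message for its decoy. Cancer cells were the next gate with Il1r1 after fibroblasts and gamma-delta T cells, with 36 and 52 UMIs (14.1 and 17.5 CPM, ratio 0.811, 0.515 to 1.26). CD8 T cells had 13 and 8 UMIs (2.05 and 0.863 CPM), a ratio of 2.37 past the limit whose interval of 0.910 to 6.59 held 1. It was under the limit with doublets kept (1.73), without the leading cell of each library (1.95) and with each cell weighted equally (1.50).

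Gamma-delta T cells (115 and 30 cells) had the highest Il1r1 level of the lymphocyte gates, and held 24 of the 51 and 4 of the 12 Il1r1 UMIs of T and NK cells. Their 24 and 4 UMIs gave 49.0 CPM (31.4 to 72.8) and 31.2 CPM (8.51 to 79.9), a ratio of 1.57 whose interval of 0.539 to 6.22 held 1. It was past the limit with no mitochondrial limit (2.67) and in the stricter gate (2.83). In the sensitive library 23 of the 24 UMIs lay in the 56 cells with a UMI of Tcrg-V6, Trdv4 or Il17a, genes of IL-17-producing gamma-delta T cells, at 96.4 CPM (61.1 to 145). In the resistant library all 4 UMIs lay in the 8 such cells (151 CPM, 41.2 to 387). The level per such cell did not differ beyond counting error, and the sensitive library held more of these cells.

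Il1rap, the chain shared by the receptors for IL-1, IL-33 and IL-36, was highest in neutrophils, with 46 and 52 UMIs (127 CPM, 93.3 to 170, and 102 CPM, 76.2 to 134) and a ratio of 1.25 (0.821 to 1.89). Fibroblasts had 331 UMIs (25.2 CPM, 22.6 to 28.1) and 106 UMIs (10.4 CPM, 8.55 to 12.6). Their ratio of 2.41 (1.93 to 3.03) passed the limit, as did 5.94% of 12588 genes in fibroblasts. It was seen in Acta2- and Tagln-bearing fibroblasts at 29.0 and 10.9 CPM and in Pi16-bearing ones at 22.2 and 10.8 CPM. In macrophages (16 and 15 UMIs), cancer cells (18 and 18) and CD8 T cells (34 and 32) all 3 ratios, from 0.992 to 1.55, had intervals that held 1.

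Il18r1, the IL-18 receptor of activated lymphocytes, was level in CD8 T cells. Its 509 and 771 UMIs gave 80.1 CPM (73.3 to 87.3) and 83.2 CPM (77.4 to 89.3), a ratio of 0.963 (0.859 to 1.08), and this stayed between 0.878 and 0.991 under every alternative tried. It was found in 27.2% and 31.9% of CD8 T cells, against 0.704% and 0.592% of neutrophils at 2204 and 2511 UMIs. Gamma-delta T cells stood higher, at 155 CPM (122 to 194) and 164 CPM (101 to 251), a ratio of 0.946 (0.577 to 1.62).

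NK cells (74 and 41 cells) had 64 and 25 Il18r1 UMIs, at 159 CPM (123 to 203) and 80.3 CPM (52.0 to 119). The ratio of 1.98 (1.23 to 3.28) was just under the limit. It was 2.19 in the stricter gate and 1.21 with each cell weighted equally. Foxp3+ T cells were in the other direction, at 68.4 CPM (50.1 to 91.2) and 123 CPM (77.1 to 186), a ratio of 0.556 (0.328 to 0.971). CD4 T cells had 78 and 16 UMIs (ratio 0.80, 0.463 to 1.47), and the direction turned, to 1.59, without cells with Il13, Il4 or Il5. Other T/NK cells had 144 and 111 (ratio 0.808, 0.626 to 1.04). The partner chain Il18rap was found in NK cells (132 and 119 CPM), CD8 T cells (45.8 and 44.6 CPM) and also in neutrophils (133 and 102 CPM), where Il18r1 had 1 UMI in each library.

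Counted by gate, few members passed 2-fold between the T cell libraries. In neutrophils 1 of 7 tested passed (Il18, lower in the sensitive library) where 9.59% of all genes did, and in macrophages none of 6 (5.04%). In dendritic cells 1 of 3 passed (Il1a, higher) against 9.79% of all genes, in fibroblasts 2 of 6 (Il1rap higher and Il1b lower) against 5.94%, and in cancer cells 1 of 5 (Il33, lower) against 4.87%. In CD8 T cells 2 of 8 passed (Il1r1 higher and Il1b lower) where 5.48% of all genes did. In CD4 T cells 1 of 2 (19.3% of all genes) and in Foxp3+ T cells 1 of 2 (15.5%) passed, both times Il1r2, higher. In gamma-delta T cells none of 2 passed where 16.3% of all genes did, in NK cells none of 1 (10.3%) and in other T/NK cells 1 of 3 (7.15%), Il1b, lower. Each count rests on at most 8 members, and nothing particular to the family was read from them.

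By their titles, the whole-tumor libraries set DOX against saline in neutrophils, of which the libraries titled control, sensitive and resistant held 334, 236 and 140. T and NK cells were 66 of 488 kept cells (13.5%), 5 of 269 (1.86%) and 16 of 263 (6.08%), so the library titled sensitive held the fewest. By its own definition of T cells, the paper gave sensitive tumors the largest T cell share by scRNA-Seq and resistant tumors the smallest. The order by title here was another one, and source fields conflict with titles. Whether these titles are right could not be settled, and each comparison between whole-tumor libraries rests on them. Median depth was 1488, 1451.5 and 2130.5 UMIs per cell. In this order, Il1b had 3367, 2584 and 2701 UMIs. The levels were 4917 CPM (4753 to 5086), 6393 CPM (6149 to 6644) and 8376 CPM (8063 to 8698), and none of these intervals overlapped. The ratio over control was 1.30 (1.23 to 1.37) for sensitive and 1.70 (1.62 to 1.79) for resistant tumor, and sensitive over resistant was 0.763 (0.723 to 0.806). By title, both treated libraries were above control, and resistant was above sensitive, the reverse of the order in the T cell libraries.

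Immature neutrophils also differed in number. Cells with a UMI of Ngp or Camp, granule genes of immature neutrophils, were 56 of 334, 20 of 236 and 4 of 140. Among neutrophils with neither, Il1b was at 6355, 6744 and 8521 CPM, which lowered the ratios over control to 1.06 and 1.34 and left sensitive over resistant at 0.791. In the T cell libraries only 2 and 7 neutrophils had such a UMI, and the ratio without them was 1.55. Il1b was also found in whole-tumor macrophages, at 1511 CPM in 14 control and 2080 CPM in 43 resistant cells.

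**Figure D5:**
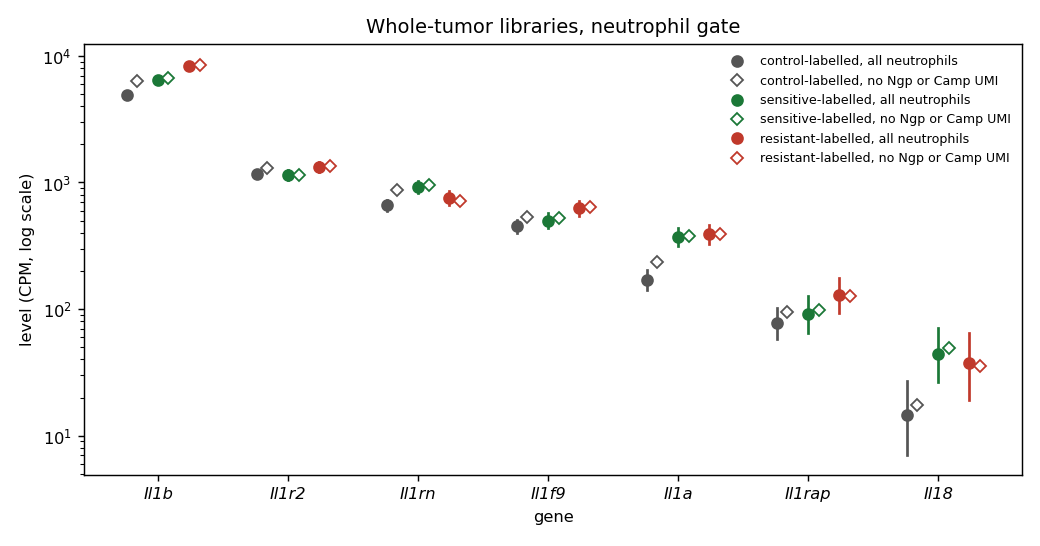
Levels of the IL-1 family genes in neutrophils of the whole-tumor libraries labelled control, sensitive and resistant, in CPM on a log axis with 95% counting intervals. Il1b was at 4917, 6393 and 8376 CPM and Il1a at 171, 374 and 391 CPM, while Il1r2 stayed between 1140 and 1324 CPM.

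Il1a differed most from control in neutrophils among members with more than 100 UMIs per library. Its 117, 151 and 126 UMIs gave 171 CPM (141 to 205), 374 CPM (316 to 438) and 391 CPM (325 to 465). The ratios over control were 2.19 (1.71 to 2.81) and 2.29 (1.76 to 2.97), and the treated libraries did not differ from each other beyond counting error (0.956, 0.750 to 1.22). Both ratios over control passed the limit, as did 15.1% and 14.4% of all genes tested. In neutrophils without Ngp or Camp they were 1.60 and 1.67, under the limit. The sensitive ratio was also under it in the stricter gate (1.94), divided by the median ratio over genes (1.98) and, by little, with each cell weighted equally (1.997). The resistant ratio was under it with each cell weighted equally (1.94).

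Il18 also passed in both, on few UMIs. Its 10, 18 and 12 UMIs gave 14.6, 44.5 and 37.2 CPM, with ratios over control of 3.05 (1.33 to 7.39) and 2.55 (1.01 to 6.58). Il1rn was at 659, 923 and 760 CPM, a ratio of 1.40 (1.22 to 1.61) for sensitive and 1.15 (0.983 to 1.35) for resistant over control. Without cells with Ngp or Camp it was at 866, 961 and 710 CPM, which gave ratios of 1.11 and 0.820 and turned the direction of the second. In both counts the antagonist stood highest in the library titled sensitive, where the agonist Il1b was in the middle.

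Il1r2 was the steadiest member in whole-tumor neutrophils, at 1161, 1140 and 1324 CPM, with ratios over control of 0.982 (0.874 to 1.10) and 1.14 (1.01 to 1.28). Il1f9 was at 450, 500 and 626 CPM (ratios 1.11, 0.926 to 1.33, and 1.39, 1.16 to 1.67), and the first turned to 0.974 without cells with Ngp or Camp. Il1rap was at 77.4, 91.5 and 130 CPM (ratios 1.18, 0.755 to 1.83, and 1.68, 1.10 to 2.57), and with each cell weighted equally the second ratio was 1.08. Against control, 2 of 7 members tested passed in each treated library, both higher, where 15.1% (sensitive) and 14.4% (resistant) of all genes did. None of 7 passed between sensitive and resistant, where 8.33% of all genes did.

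Other whole-tumor gates were thin. Cancer cells numbered 31 in control and 45 in resistant tumor, and none of the 5 members tested passed there while 12.1% of all genes did. Il1a had 23 and 26 UMIs and Il1b 21 and 43 (control and resistant), with intervals that held 1. Of the 7 neutrophil markers these libraries listed, 4 and 5 were found in at least 10% of those cancer cells, so the part of neutrophil RNA in their Il1b was not tested. The 8 control fibroblasts held 66 Il33 and 21 Il1r1 UMIs, too few cells for a ratio.

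Of 45 other genes of the pathway (11 family relatives, 10 of maturation, 11 of signalling and 13 NF-kB target genes), 4 of 12 tested target genes passed in fibroblasts, where 5.94% of all genes did, all 4 higher in the sensitive library, and the median ratio of the 12 was 1.61 against 1.06 over all genes. The neutrophil attractants Cxcl5 (1719 and 254 UMIs, ratio 5.23, 4.58 to 5.99) and Cxcl2 (1652 and 618, ratio 2.07, 1.88 to 2.27) had most UMIs. Csf3, the neutrophil growth factor, had 102 and 22 UMIs (ratio 3.58, 2.24 to 5.97), and Csf2 had 65 and 5 UMIs (ratio 10.1), of which 51 were in 1 cell. None of 11 signalling genes and none of 4 family relatives passed in fibroblasts, where the IL-33 receptor gene Il1rl1 had 232 and 250 UMIs.

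Of 8 target genes tested in neutrophils 2 passed (9.59% of all genes did), both lower in the sensitive library. Saa3 had 105 and 818 UMIs (ratio 0.181, 353 resistant UMIs in 1 cell) and Lcn2 had 285 and 1599 (ratio 0.252, 522 in 1 cell). The median over the 8 was above 1, at 1.30 against 1.02 over all genes. Of 6 maturation genes 1 passed, the DNA sensor Aim2 (4 and 19 UMIs), and of 8 signalling genes none.

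Macrophages had 2 of 9 target genes past the limit (5.04% of all genes passed), both higher in the sensitive library. Saa3, an acute phase protein, had 10864 and 288 UMIs (ratio 35.1, 31.2 to 39.6) and Il6 had 149 and 15 (ratio 9.24, 5.42 to 16.9). The median of the 9 was 0.685 against 1.04 over all genes, so these genes were apart from the rest of their group. None of 8 maturation and none of 11 signalling genes passed.

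Cancer cells, where 4.87% of all genes passed, had 2 of 3 family relatives higher. These were Il18bp, which binds and blocks IL-18 (90 and 52 UMIs, ratio 2.03), and Il18rap (33 and 18, ratio 2.15). Of 11 target genes Csf3 (222 and 91, ratio 2.86) and Cxcl5 (59 and 7, ratio 9.87) were higher and Saa3 (8 and 53, ratio 0.177) was lower. In CD8 T cells, where 5.48% of all genes passed, 3 of 10 target genes were higher and 1 was lower. The higher ones were Saa3 (2350 and 66 UMIs, 1526 in 1 cell), Cxcl1 (246 and 60) and Il6 (57 and 1). The lower one was Lcn2 (14 and 90). Of 10 signalling genes there 1 passed, the kinase gene Irak2 (218 and 152 UMIs, ratio 2.09, 1.69 to 2.59). CD4 T cells had Csf2 lower (258 and 213 UMIs, ratio 0.199) among 5 target genes. Gamma-delta T cells had the inhibitor Nfkbia higher (715 and 80, ratio 2.34, 1.85 to 2.98) among 6 signalling genes. Of all genes, 19.3% passed in CD4 and 16.3% in gamma-delta T cells.

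Smaller gates had a few pathway genes past the limit, most on few UMIs. In CD4 T cells Irak2 (23 and 1 UMIs) and Lcn2 (366 and 0 UMIs, 363 of them in 1 cell) were higher in the sensitive library. Foxp3+ T cells, where 15.5% of all genes passed, had 2 of 4 target genes higher, the NF-kB regulator Nfkbiz (224 and 19 UMIs, ratio 3.14, 1.96 to 5.31) and Saa3 (147 and 1), with a median of 2.48 over the 4 against 1.12 over all genes, and none of 6 signalling genes. Gamma-delta T cells also had Myd88 (26 and 2 UMIs), Casp1 (32 and 4) and Cxcl2 (20 and 1) higher, each with an interval that held 1. NK cells had the pore-forming gene Gsdmd (28 and 7 UMIs, ratio 3.10), Irak2 (38 and 11, ratio 2.67) and Nfkbiz (39 and 14, ratio 2.16) higher.

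Other T/NK cells had the IL-33 receptor gene Il1rl1 (75 and 10 UMIs, ratio 4.67, 2.40 to 10.1), Csf2 (727 and 100, ratio 4.53, 3.67 to 5.64) and Tollip (27 and 8, ratio 2.10) higher and Cxcl2 (8 and 34) and Saa3 (22 and 40) lower in the sensitive library. The type 2 cytokine gene Il13 had 1094 and 19 UMIs in the same cells. Dendritic cells had the sensor Nlrp3 lower (4 and 16 UMIs) and the NF-kB inhibitor Tnfaip3 higher (27 and 20, ratio 2.29). Cancer cells of the T cell libraries had Aim2 higher (15 and 8). Cancer cells of whole tumor, resistant over control, had Casp4 (39 and 11, ratio 2.29) and Csf2 (55 and 17, ratio 2.09) higher and Cxcl5 (10 and 19, ratio 0.341) and Map3k7 (10 and 13) lower.

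In whole-tumor neutrophils Il18bp was higher than control in sensitive (28 and 14 UMIs, ratio 3.39) and resistant tumor (24 and 14, ratio 3.64). Of all genes, 15.1% passed in sensitive and 14.4% in resistant over control. Of 8 target genes Cxcl1 was higher in both (ratios 3.57 and 2.16), Sod2 in resistant (2.30), and Lcn2 was lower in sensitive tumor (0.460). Of 5 maturation genes Pycard (2.01, 1.27 to 3.21) and Casp4 (2.01, 1.42 to 2.85), which take part in inflammasome activation, were higher in sensitive tumor. Between sensitive and resistant, where 8.33% of all genes passed, Saa3 (0.379) and Gsdmd (0.415) were lower in sensitive.

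Genes with the most alike levels were searched among 11220 genes over 23 points, each a gate in a T cell library, by Pearson correlation of log2(CPM + 10). The points share libraries and gates, so these values are a description. Il1f9 was matched most closely by Cxcr2, a marker that defined the neutrophil gate (0.999), then Mirt2 and Asprv1. Il1b was closest to C130050O18Rik (0.982), Cd300lf and Mcemp1, Il1a to Fcgr4 (0.971) and Mcemp1, and Il1rn to Igsf6 (0.983), Sirpb1c and Cxcl3. Il33 was closest to Piezo2 (0.984), Irx5 and Evc, Il18r1 to Sept1 (0.985), Ptprcap and Stat4, and Il1rap to Ccdc126 (0.976), G0s2 and Tnfrsf23. The loosest matches were those of 3 members, with Il1r2 closest to Ebi3 (0.871), Ldha and Ccr1, Il1r1 to Fndc4 (0.888), Adam12 and Abi3bp, and Il18 to Trib1 (0.919), Bri3 and Prdx5.

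Agonist and decoy were also compared within single neutrophils. After thinning, Il1r2 was found in 54.8% of sensitive neutrophils with an Il1b UMI (69 of 126) and in 48.9% of resistant ones (69 of 141), against 25.0% and 35.7% of neutrophils without Il1b. Il1rn was found in 38.9% and 37.6% of those with Il1b, against 62.5% and 28.6% of those without. In whole tumor Il1r2 was found in 43.1%, 39.2% and 43.4% of control, sensitive and resistant neutrophils with Il1b, against 34.3%, 40.0% and 25.9% of those without, so the sensitive whole-tumor library showed no such difference. In the T cell libraries few neutrophils were without an Il1b UMI after thinning. In whole tumor 232 of 334 control, 166 of 231 sensitive and 113 of 140 resistant neutrophils had one. All these shares are a description.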

How the data were processed

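The authors aligned 10x Genomics Chromium 3′ v3 reads to mm10 and deposited UMI counts per gene and barcode, not normalized. Per the file headers, Cell Ranger 6.0.0 made the T cell libraries and Cell Ranger 3.0.1 the whole-tumor libraries. From these counts, T cell libraries kept cells with 500 or more genes and a mitochondrial share of 10% or less, and whole tumor kept those with 200 or more genes and 20% or less, where all 37 mitochondrial features were at 0. In the T cell libraries the highest Scrublet scores (0.8% of cells per 1000 barcodes; 112 and 159 cells) were removed as doublets. A cell went to the lineage with most of its 8 markers detected, at least 2 (7 markers for whole-tumor neutrophils, whose feature list lacked Retnlg). UMIs were summed over each gate of at least 10 cells and given as CPM with exact Poisson 95% intervals. Ratios needed 20 cells in both libraries and 10 UMIs, and carry exact conditional binomial 95% intervals. Shares were also taken after thinning to 500 UMIs per cell. No test was possible with 1 library per group. A floor of 3 counts stands for 0.

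All 10 members are named. Of the other pathway genes, those past 2-fold were named, up to the 4 with most UMIs in each group and gate. Of alike genes the 3 closest were named, among genes with at least 200 UMIs, apart from 1 that is not reported here. Il1rl1 and Il18rap were added as receptor partners. Members and lists were chosen with earlier results of these data known. The ratio script was checked on simulated counts. Alternatives covered the filters, gates, scaling and single cells. Versions were Python 3.11.15, NumPy 2.4.6, SciPy 1.17.1, pandas 2.3.3, scanpy 1.11.5 and matplotlib 3.10.9. Gene positions came from GENCODE and promoters from RefSeq, where all 10 members matched.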

Additional observations from a re-analysis of the deposited data

Results flagged for a closer look

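Il33 differed in opposite directions between cell types of the same libraries. Its ratio, sensitive over resistant T cell library, was 1.86 (95% interval 1.76 to 1.96) in fibroblasts and 0.0775 (0.0364 to 0.147) in cancer cells, where 75 of 151 resistant UMIs were in 1 cell. With 1 library per group, the difference between the ratios was not tested.

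Il1b differed in opposite directions between the library types. In neutrophils its ratio, sensitive over resistant, was 1.69 (1.63 to 1.75) in the T cell libraries and 0.763 (0.723 to 0.806) in whole tumor, where the resistant library carries conflicting labels. Whether the whole-tumor titles are right could not be settled. In CD8 T cells the Il1b ratio was 0.250 (0.176 to 0.348), against 1.69 in neutrophils of the same libraries, and S100a9 had 16 and 804 UMIs in those CD8 T cells. Neither difference was tested.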

How the results depend on the processing

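Of 544 alternative values for 71 ratios, 493 lay within the counting interval of the reported ratio, 50 moved outside it and 1, a ratio past 2-fold, reversed. The value crossed 1 in 32 alternatives of 17 ratios, mostly ratios whose interval held 1. The interval had excluded 1 in 3 of the 32, Il1r2 in CD4 T cells and Il1b in dendritic cells (0.971 and 0.0919). Of 14 ratios past 2-fold, 7 were short of it under at least 1 alternative. The Il1b ratio in neutrophils of the T cell libraries was 1.61 with doublets kept, 1.62 divided by the median ratio over genes and 1.55 without cells with Ngp or Camp. In fibroblasts Il1r1 was 1.48 and Il33 1.66 as a mean over cells scaled to 10000 UMIs, and Il33 was 1.75 divided by the median ratio. Il1r2 in CD4 T cells was 3.56 with no mitochondrial limit and reversed to 0.880 without cells with Il13, Il4 or Il5. In whole-tumor neutrophils Il1b over control, for sensitive and resistant tumor, was 1.23 and 1.60 in the stricter gate, 1.18 and 1.59 divided by the median ratio, 1.14 and 1.31 as a scaled mean, and 1.06 and 1.34 without Ngp or Camp. For these the cause was not tested. Of 74 alternative shares of cells with a UMI, 60 moved, since they counted at 1000 UMIs per cell or asked for 2 UMIs. The choices by Ngp, Camp, Il13, Il4, Il5, Pi16, Col1a1, Col1a2, S100a8 and S100a9 were made after seeing the data. No paired analysis was possible because each group had 1 library and no result came from a test. Depth limits Il18, Il1rap and most lymphocyte gates of the resistant library, which held under 50 UMIs of a gene.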
